A study of Mus musculus with 3 samples.

Results

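The SR and hnRNP splicing regulators were taken as every gene whose mouse symbol begins with Srsf or Hnrn. They comprised 30 of the 13224 named genes in the tables, with 10 SR genes (16 transcripts) and 20 hnRNP genes (33 transcripts). The libraries were 3 samples of polyadenylated RNA from J1 mouse embryonic stem cells of genotype Tet1-/-, Tet2-/-, Tet3-/-, all of 1 group, so every comparison is between mRNAs of the same cells and none is between genotypes. The cells were cultured with LIF (ESGRO) on primary mouse embryonic fibroblasts, which were removed before lysis by letting them attach. The labels do not say whether the samples were separate cultures or whether the line was 1 clone, so the spread between samples may be technical. Srsf10 and Hnrnpd, the other annotated protein-coding members, are not analysed here.

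SR proteins carry an RNA recognition motif and a tail rich in arginine and serine, and most promote the use of exons whose enhancers they bind. The hnRNPs coat nascent transcripts, often act against SR proteins at the same exons, and also serve in RNA export, stability and translation. Many genes of both families control their own amount through alternative exons that lead to decay of the mRNA. In the bisulfite assay, ordinary cytosines are deaminated and sequenced as T, whereas 5-methylcytosine, 5-hydroxymethylcytosine and any cytosine that escaped the reagent are all sequenced as C. The unconverted share is the percentage of reads with C at a cytosine, and it does not tell these states apart.

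Over whole libraries the share was 1.46% ± 0.0643 (SD, n = 3), and summed coverage of cytosines ran from 139884444 to 151362866 reads. The SR and hnRNP mRNAs took 1.01% to 1.09% of it. All 9 stem cell markers were listed and held 0.986% ± 0.0146 of the coverage (SD, n = 3). Of 9 fibroblast markers 7 were listed, with 0.0520% to 0.0697% per library, and Postn and Lum were not. The part of feeder RNA in the results below was not tested.

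How much of each mRNA the tables cover was examined first. Of the 49 transcripts, 34 had listed cytosines only within a stretch of 350 nt or less. In Srsf3, a small SR protein that also serves mRNA export, the listed cytosines lay between positions 391 and 550. RefSeq holds a non-coding transcript (NR) of Srsf3 besides its coding one. The same holds for Srsf9, listed from 434 to 570, and for Hnrnpu, Hnrnpdl and Hnrnpll, which are listed over long stretches. Whether such transcripts bear on the stretches was not tested. In Hnrnpa2b1, which encodes the A2 and B1 proteins, the stretch ran from 860 to 1142. In Hnrnpa1, a splicing repressor with many copies in the genome, it ran from 780 to 1085. The 5 listed transcripts of Hnrnpf, whose protein binds runs of G, were covered only at their 5′ ends, none beyond position 236. Hnrnpk, whose protein binds C-rich RNA, was covered only between positions 36 and 246. The mRNAs with listed cytosines from near the start to beyond position 1800 were Srsf2 and Srsf6 among SR genes, and Hnrnpa0, Hnrnpdl, Hnrnph1, Hnrnph2, Hnrnpl, Hnrnpll, Hnrnpu and Hnrnpul1 among hnRNP genes. In Hnrnpul2 they ran from position 321 to 5584. For the transcripts with short stretches, coverage describes pieces of the mRNA and is no measure of expression.

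**Figure D1:**
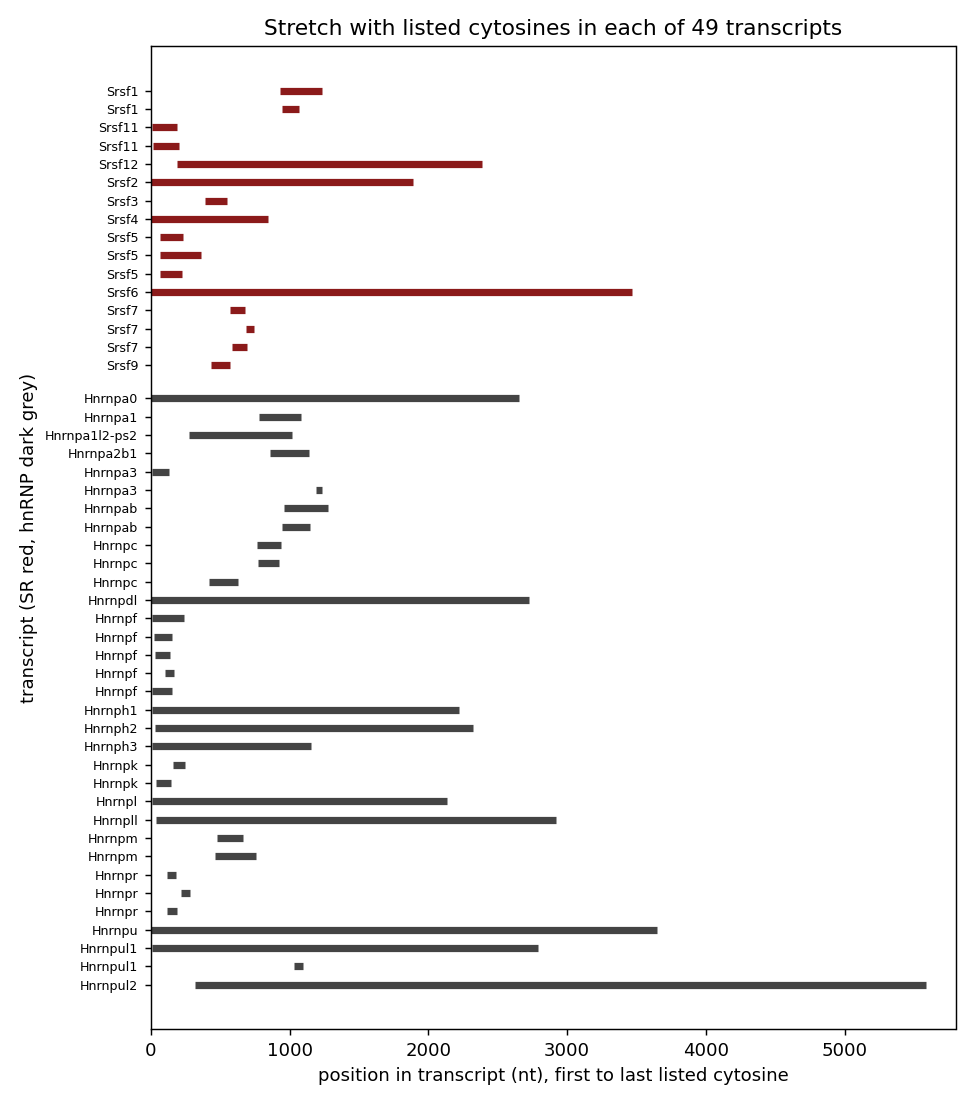
Stretch from the first to the last listed cytosine (x axis, position in the transcript in nt) for each of the 49 transcripts of SR genes (red, above) and hnRNP genes (dark grey, below). Most bars are short; 34 span 350 nt or less.

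A cytosine was testable with at least 10 reads in each library. The families held 6043 testable cytosines in 27 genes, of which 1455 lay in 9 SR genes and 4588 in 18 hnRNP genes. Mean coverage per testable cytosine was 413.8 ± 26.9 reads in SR genes and 194 ± 9.69 reads in hnRNP genes (SD, n = 3 each). The medians were closer, at 93, 94 and 81 reads in SR genes and 83, 74 and 71 in hnRNP genes in replicates 1, 2 and 3. Srsf2, which binds exonic enhancers, was the most deeply read member at 742.9 ± 40.9 reads per testable cytosine, and it took 0.230% ± 0.00860 of all coverage (SD, n = 3). In bulk RNA, fewer cells that express a gene and less RNA per cell cannot be told apart. Srsf6 followed with 459.2 ± 43.1 reads, Hnrnpa0 with 354.7 ± 9.14 and Hnrnpdl with 298 ± 24.2 (SD, n = 3 each). Srsf12, Hnrnpr and Hnrnpa1l2-ps2, the last named as a pseudogene, had listed but no testable cytosines. Srsf7 had 2 testable cytosines, at which 0 of 85 reads were unconverted, which allows a share of up to 3.53%.

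SR and hnRNP mRNAs were then compared in their overall share. SR mRNAs had 1.58%, 1.51% and 1.45% in replicates 1, 2 and 3, a mean of 1.51% ± 0.0683 (SD, n = 3). The hnRNP mRNAs had 1.74%, 1.63% and 1.61%, a mean of 1.66% ± 0.0687 (SD, n = 3). SR was lower in each of the 3 libraries, with differences of -0.158, -0.128 and -0.166 percentage points, and the ranges of the families did not overlap. The mean difference of SR minus hnRNP was -0.15 ± 0.0202 percentage points (SD, n = 3), and the two-sided exact sign-flip test gave p = 0.25, the smallest value that 3 libraries allow. All testable cytosines together had 1.46% ± 0.0638 (SD, n = 3). The difference was not alike at all depths. At cytosines with a mean coverage of 10 to below 50 reads, SR had 1.68%, 1.79% and 1.85% and hnRNP 1.83%, 1.80% and 1.82%, so that SR was higher in replicate 3. In that class SR had a mean of 1.777% ± 0.0849 and hnRNP without Hnrnpa0 1.731% ± 0.0281 (SD, n = 3 each). At 50 to below 200 reads, SR had 1.525% ± 0.0572 and hnRNP without Hnrnpa0 1.666% ± 0.0652 (SD, n = 3 each). At 200 to below 500 reads the values were 1.516% ± 0.154 and 1.641% ± 0.0820 (SD, n = 3 each). At 500 reads or more, SR had 1.503% ± 0.0648 and hnRNP without Hnrnpa0 1.523% ± 0.0523 (SD, n = 3 each), against 1.604% ± 0.0591 with it.

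Each gene with at least 20 testable cytosines was then set against the share of its library with limma, over all 7405 such genes of the tables. Adjusted p-values below are Benjamini-Hochberg values from limma over those genes. The log2 ratio compares the share of a gene with that of its library. Its SE and p-value use a variance that limma moderates toward that of other genes. The SE therefore does not give the spread of the 3 libraries alone. The SR genes gave 2 of 6 above the library share and the hnRNP genes 9 of 16, where 6.79% of all genes tested were called above. Below it were 0 members, where 7.43% of all genes tested were, and 11 members were not called in either direction. The median log2 ratio was 0.04 over the SR genes and 0.23 over the hnRNP genes, against -0.01 over all genes tested. Deeply read genes are called more often. Among the 194 genes with a mean of 100000 reads or more over their testable cytosines, 27.8% were above and 35.6% below, while of the members in that class 1 of 2 SR genes and 4 of 5 hnRNP genes were above.

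**Figure D2:**
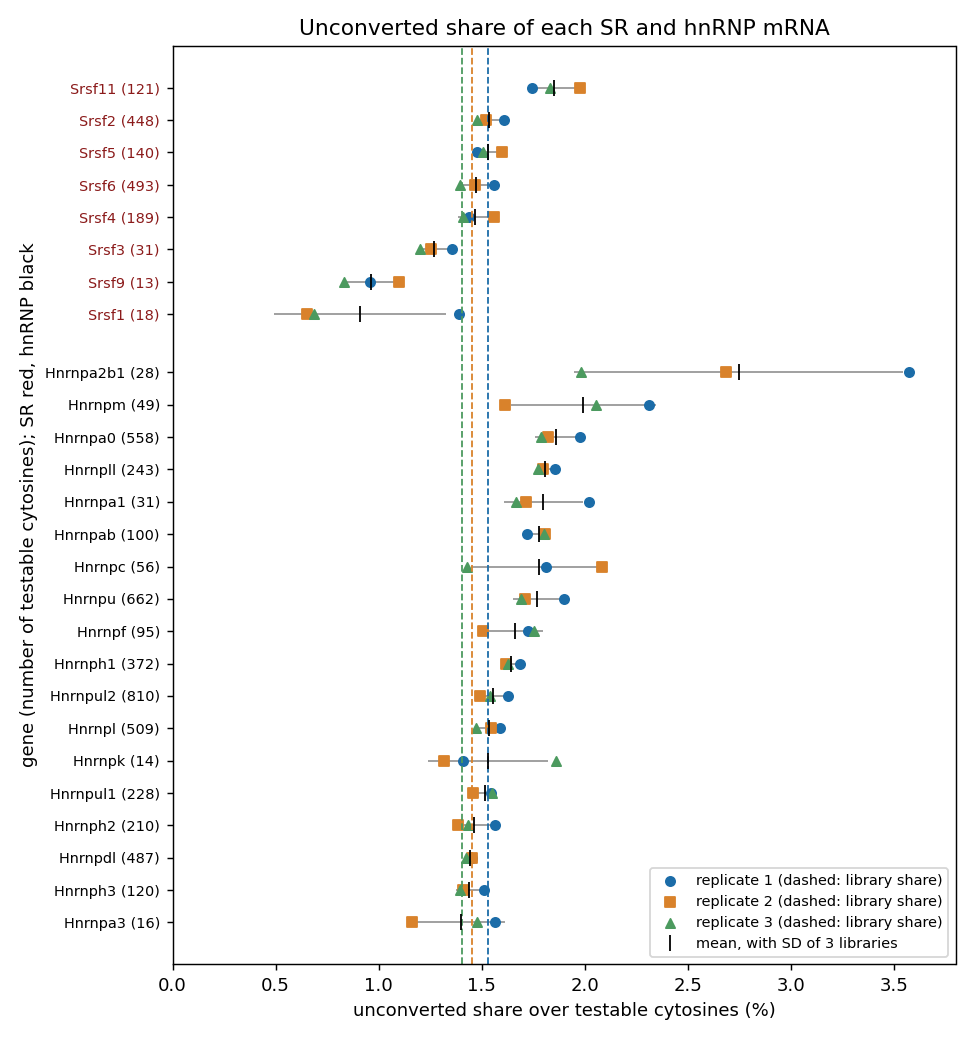
Unconverted share (x axis, %) of each SR gene (red, above) and hnRNP gene (black, below) with at least 13 testable cytosines, whose number is in brackets. Points are the 3 libraries, the tick and line give mean and SD, and dashed lines mark the share of each whole library. Hnrnpa0 and Hnrnpu lie to the right of all 3 dashed lines, and each point of Srsf6 lies close to the line of its own library.

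Among SR genes, the call above the library share fell on Srsf11 and Srsf2. Srsf11 had shares of 1.74%, 1.98% and 1.83%, with a log2 ratio of 0.34 ± 0.0738 (SE, adjusted p = 0.00160, limma, n = 3). Its 121 testable cytosines lie within the first 206 nt of 2 transcripts. Srsf2 had 1.61%, 1.52% and 1.48%, each just above its library, with a log2 ratio of 0.07 ± 0.0115 (SE, adjusted p = 6.85e-05, limma, n = 3). The Srsf2 gene overlaps Mfsd11 in the annotation. Srsf6, which binds purine-rich exonic enhancers, had 1.56%, 1.47% and 1.39%, with a log2 ratio of 0.01 (adjusted p = 0.747, limma, n = 3). Srsf4 (1.47% ± 0.0803), Srsf5 (1.53% ± 0.0640) and Srsf3 (1.27% ± 0.0782) were not called either (SD, n = 3 each). Srsf1, the SR protein long known as ASF/SF2, and Srsf9 had too few testable cytosines for this test, with 0.909% ± 0.416 and 0.964% ± 0.133 (SD, n = 3 each).

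Among hnRNP genes, Hnrnpa2b1 stood highest. It had 3.58%, 2.69% and 1.98% in replicates 1, 2 and 3 over 28 testable cytosines, a log2 ratio of 0.87 ± 0.107 (SE, adjusted p = 6.26e-07, limma, n = 3). All 3 libraries lay above their background, but replicate 1 was far above replicate 3, with a mean of 2.75% ± 0.799 (SD, n = 3). Hnrnpa0, whose protein binds AU-rich elements, had 1.98%, 1.82% and 1.79% over 558 testable cytosines. Its log2 ratio of 0.35 ± 0.0152 (SE, adjusted p = 1.99e-16, limma, n = 3) was the highest of the 194 deeply read genes. Hnrnpab, whose gene overlaps Phykpl, had 1.78% ± 0.0492 (SD; adjusted p = 0.00469, limma, n = 3). Hnrnpa1, at 1.80% ± 0.193 (SD), was not called (adjusted p = 0.0714, limma, n = 3), and its value is uncertain because of its copies. Hnrnpdl, a relative of the AU-binding Hnrnpd, had 1.44% ± 0.0171 (SD) and a log2 ratio of -0.02 (adjusted p = 0.544, limma, n = 3).

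Of the U group, Hnrnpu, whose gene overlaps Cox20 and whose product is a nuclear scaffold protein that binds chromatin and RNA, had 1.90%, 1.71% and 1.69% over 662 testable cytosines. Its log2 ratio of 0.27 ± 0.0175 (SE, adjusted p = 1.18e-12, limma, n = 3) was the 4th highest of the 194 deeply read genes. Its relative Hnrnpul2 had 1.55% ± 0.0676 (SD; adjusted p = 0.0145, limma, n = 3), and Hnrnpul1 at 1.52% ± 0.0514 (SD) was not called. In the G-run-binding F/H group, Hnrnph1 had 1.68%, 1.62% and 1.63% (adjusted p = 8.57e-07, limma, n = 3). Hnrnph2, Hnrnph3 and Hnrnpf, with 1.46% ± 0.0926, 1.44% ± 0.0641 and 1.66% ± 0.137, were not called (SD, n = 3 each). Hnrnpll, a regulator of CD45 splicing in lymphocytes, had 1.81% ± 0.0438 (SD; adjusted p = 0.000856, limma, n = 3), and Hnrnpl, which binds CA repeats, 1.54% ± 0.0579 (SD; adjusted p = 0.0101, limma, n = 3). Hnrnpm had 1.99% ± 0.354 (SD; adjusted p = 0.0453, limma, n = 3) from 49 testable cytosines, while Hnrnpc, which binds runs of U, had 1.78% ± 0.329 (SD) and was not called (adjusted p = 0.154, limma, n = 3).

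Some of these calls were lost when 1 library was left out of the limma fit. Hnrnpm was not called without replicate 1 (adjusted p = 0.201, limma) nor without replicate 3 (adjusted p = 0.192, limma). Hnrnpul2 was not called without replicate 1 (adjusted p = 0.0571, limma) nor without replicate 3 (adjusted p = 0.154, limma). Hnrnpl was lost without replicate 2 (adjusted p = 0.128, limma), and Hnrnpab without replicate 3 (adjusted p = 0.0515, limma). The calls for Hnrnpa0, Hnrnpa2b1, Hnrnph1, Hnrnpll, Hnrnpu, Srsf2 and Srsf11 held without any 1 of the 3 libraries. With candidate sites left out, described next, 2 SR and 9 hnRNP genes were still called.

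Single cytosines were called candidates when the unconverted reads exceeded the library background in a binomial test, combined over the 3 libraries and adjusted over all 1639820 testable cytosines, with a mean share of at least 10%. The families held 17 candidates in 8 genes, or 0.281% of their testable cytosines, where the share of all testable cytosines was 0.0473%. SR genes held 2 among 1455 testable cytosines, or 0.137% (exact 95% interval 0.0167% to 0.496%). The hnRNP genes held 15 among 4588, or 0.327% (exact 95% interval 0.183% to 0.539%). Of the 15, 9 lay in Hnrnpa0. Without that gene, left out after the values were seen, the hnRNP genes held 6 among 4030, or 0.149% (exact 95% interval 0.0547% to 0.324%). The intervals overlap between the families, and they cover counting error only. They treat cytosines as independent, although neighbouring cytosines of a transcript share reads, so they do not settle a difference between the families. Below, an adjusted p for a cytosine comes from this exact binomial test.

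**Figure D3:**
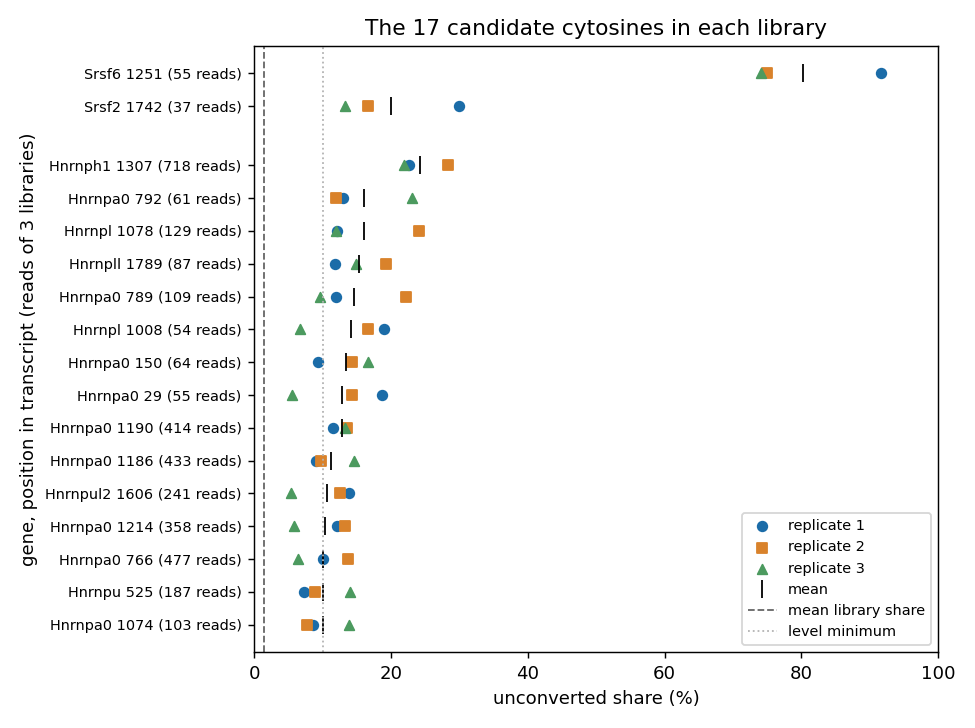
Unconverted share (x axis, %) of the 17 candidates in each library, SR sites above and hnRNP sites below, with the position in the transcript and the reads of all libraries together. Srsf6 position 1251 stands at 74.1% to 91.7%, and 14 of the other 16 have means below 20%.

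The strongest site was position 1251 of Srsf6 (NM_026499.4). It was unconverted in 11 of 12 reads in replicate 1, 12 of 16 in replicate 2 and 20 of 27 in replicate 3, a mean of 80.2% ± 9.90 (SD, n = 3; adjusted p = 2.77e-61, exact binomial test). The next cytosine, at 1252, was converted in all of its 55 reads, and the 3 listed cytosines within 10 nt had 3 unconverted of 164 reads. The high share was limited to position 1251 among these. The site lies where the mRNA is thinly read: its 55 reads compare with a median of 237 per testable cytosine of the transcript and a maximum of 18264. What these few reads derive from was not tested.

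Hnrnph1 (NM_021510.2) had the most deeply read candidate of the families. At position 1307, 51 of 226, 71 of 250 and 53 of 242 reads were unconverted in replicates 1, 2 and 3, a mean of 24.3% ± 3.58 (SD, n = 3; adjusted p = 6.91e-147, exact binomial test). The adjacent cytosine at 1306 had 21 of 730 reads, or 2.88%. The depth at the site was 114% of the transcript's median. All 3 libraries gave between 21.9% and 28.4%.

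Position 1742 of Srsf2 (NM_011358.2) had 3 of 10, 2 of 12 and 2 of 15 unconverted reads, a mean of 20.0% ± 8.82 (SD, n = 3; adjusted p = 0.00468, exact binomial test). Its 37 reads were 3.60% of the transcript's median, no cytosine within 10 nt was listed, and without replicate 1 the call was lost (adjusted p = 0.323, exact binomial test). Hnrnpl (NM_177301.5) had 7 of 58, 7 of 29 and 5 of 42 reads at position 1078, a mean of 16.0% ± 7.02, and 8 of 54 reads in all at position 1008. The site at 1008 was not called without replicate 1 (adjusted p = 0.437, exact binomial test) nor without replicate 2 (adjusted p = 0.137, exact binomial test). Hnrnpll (NM_144802.4) had 4 of 34, 5 of 26 and 4 of 27 reads at position 1789, a mean of 15.3% ± 3.75 (SD, n = 3). Its 2 listed neighbours within 10 nt had 1 of 162 reads. Hnrnpul2 (NM_001081196.1) had 10.6% ± 4.56 at position 1606 and Hnrnpu (NM_016805.2) 10.0% ± 3.53 at position 525 (SD, n = 3 each). The mean of Hnrnpul2 fell below 10% without replicate 1 (8.95%) and without replicate 2 (9.66%), and that of Hnrnpu without replicate 3 (8.03%).

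In Hnrnpa0 (NM_029872.1) the sites formed a broader pattern. Its 9 candidates lay at positions 29, 150, 766, 789, 792, 1074, 1186, 1190 and 1214, with means from 10.0% to 16.0%. Position 1190 was the steadiest, with 16 of 138, 19 of 140 and 18 of 136 reads, or 12.8% ± 1.06 (SD, n = 3; adjusted p = 3.06e-27, exact binomial test). Position 1186 had 13 of 143, 15 of 153 and 20 of 137 reads, or 11.2% ± 3.00, and position 766 had 17 of 168, 23 of 168 and 9 of 141 reads, or 10.1% ± 3.65 (SD, n = 3 each). The 42 listed cytosines within 10 nt of these sites, candidates themselves left out, had 4.001% ± 0.234 unconverted reads (SD, n = 3). Around single sites the pooled share ran from 4.78% of 4517 reads near position 1214 to 1.10% of 821 reads near position 789, and 0 of 57 reads near position 29. Neighbouring cytosines share reads and are not independent. The sites at 1190 and 789 were called without any 1 of the libraries. Those at 150 and 1074 were lost in each of the 3 fits without a library (adjusted p up to 0.319 at 150 and up to 0.388 at 1074, exact binomial test). The sites at 1186 and 792 were lost without replicate 3 (9.45% at 1186; adjusted p = 0.0896 at 792, exact binomial test), and 766 without replicate 2 (8.25%). Position 1214 was lost without replicate 1 (9.57%) and without replicate 2 (8.97%).

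The Hnrnpa0 site at position 29 is the candidate for which sequence was at hand, since the RefSeq promoter table (GRCm38.p6) ends with the first 50 nt of a transcript of each gene. Of 20 member transcripts with at least 5 listed cytosines there, 12 matched the table, with every listed cytosine on a C (57.7% of all such transcripts did), and the other 8 are not used. All listed cytosines of Hnrnpa0, Srsf2 and Srsf6 in these 50 nt fall on a C of the table. The stretch around the candidate is shown with those around the highest cytosine of Srsf6 and Srsf2, the most deeply read SR mRNAs, in their first 50 nt, the cytosine in question in capitals.
Srsf6: aggccggcgcgcgCgcgcgcaccattgtg
Srsf2: ccgtcaggttcgggtgCtctgcggcggcc
Hnrnpa0: tcccgataggggagCggaggtggcggccg
These are chr2:162931508-162931536 on the plus strand for Srsf6 (positions 1 to 29 of the transcript), chr11:116853045-116853073 on the minus strand for Srsf2 (22 to 50) and chr13:58128514-58128542 on the minus strand for Hnrnpa0 (15 to 43). Position 29 of Hnrnpa0, a C followed by G, had 3 of 16, 3 of 21 and 1 of 18 unconverted reads, or 12.9% ± 6.71 (SD, n = 3; adjusted p = 0.0314, exact binomial test). Without replicate 1 (adjusted p = 0.60) or replicate 2 (adjusted p = 0.448) it was not called by the exact binomial test. The C at position 38 of Srsf2 had 18 of 342, 9 of 312 and 13 of 342 reads, or 3.98% ± 1.20, and that at position 14 of Srsf6 3.89% ± 4.50 (SD, n = 3 each); neither was a candidate. Over the first 48 nt of matched member transcripts with testable cytosines, cytosines before G had 1.27% ± 0.259, those in CHG (H for A, C or T) 1.08% ± 0.15 and those in CHH 1.30% ± 0.244 (SD, n = 3 each). The ranges of these contexts overlap between libraries.

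Windows of 100 nt showed where the excess lay. In Hnrnpa0, 12 of 24 windows were above the library share in all 3 libraries and 3 were below. The highest was 801 to 900 with 4.48% ± 0.704 at a mean coverage of 28.6 reads, followed by 1101 to 1200 with 3.34% ± 0.402 at 158.7 reads and 1201 to 1300 with 3.24% ± 0.177 at 85.1 reads (SD, n = 3 each). With a division at position 1300, chosen after the values were seen, the 383 testable cytosines before it had 2.02%, 1.86% and 1.85%, and the 175 beyond it 1.43%, 1.27% and 0.935%. The ranges of the 2 stretches over the libraries did not overlap. Mean coverage was 479.6 reads before and 81.4 reads beyond position 1300, and its part in the difference was not tested. An adjusted p below 0.05 in the exact binomial test, at any level of the share, was found at 60 of the 558 Hnrnpa0 cytosines, where 0.499% of all testable cytosines have one. All 60 lay before position 1300 and 0 beyond it, where 6 had an unadjusted p below 0.05.

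Hnrnpu had 17 of 33 windows above the library share in all 3 libraries and 3 below. Its highest windows were 401 to 500 with 2.59% ± 0.559 and 2101 to 2200 with 2.42% ± 0.265 (SD, n = 3 each). In Hnrnph1, 9 of 22 windows were above and 4 below, with the highest at 801 to 900 (2.66% ± 0.0915, SD, n = 3). Srsf2 had 7 of 18 windows above and 3 below, all means between 1.24% and 2.15%. Srsf6 had 4 of 27 above and 8 below, with a peak of 8.48% ± 0.970 at 1201 to 1300 (SD, n = 3). Of the 10 testable cytosines in that window, only the site at 1251 had an adjusted p below 0.05 in the exact binomial test.

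**Figure D4:**
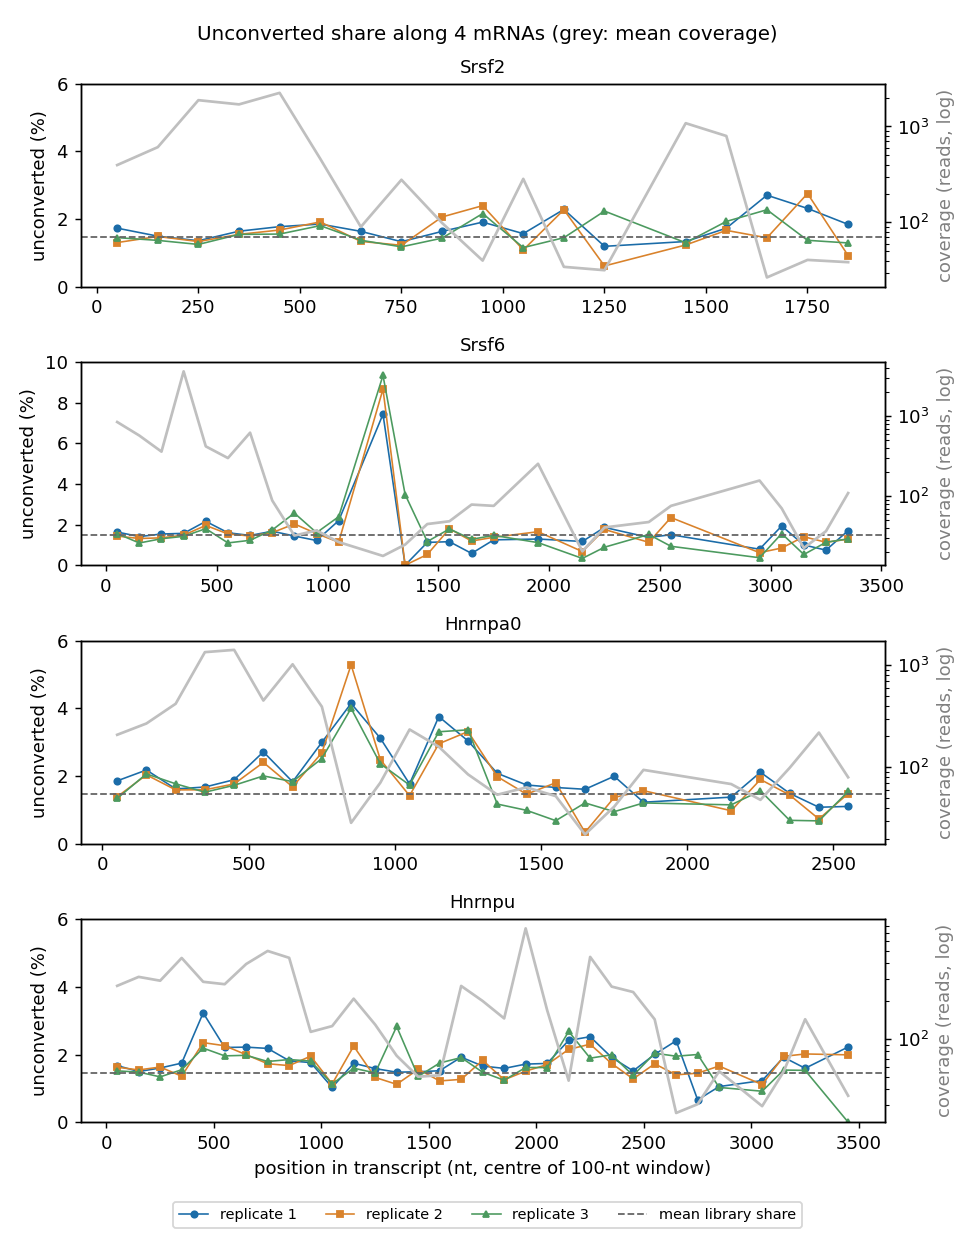
Unconverted share (left axis, %) in windows of 100 nt along Srsf2, Srsf6, Hnrnpa0 and Hnrnpu, by library, with the mean coverage in grey (right axis, reads, log scale) and the mean library share dashed. Windows with fewer than 5 testable cytosines are left out. Srsf6 has a lone peak at 1201 to 1300, and in Hnrnpa0 the mean of every plotted window up to position 1300 is above the dashed line.

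Below the 10% minimum, 36 cytosines of SR genes and 149 of hnRNP genes had an adjusted p below 0.05 in the exact binomial test. With the candidates these made 2.61% of the testable cytosines of SR genes and 3.57% of those of hnRNP genes, beside the 0.499% over all testable cytosines. Without Hnrnpa0 the hnRNP value was 2.58%. This share grows with depth. At a mean coverage of 500 reads or more it was 8.65% in SR genes, 10.9% in hnRNP genes and 7.78% in all genes. At 200 to below 500 reads it was 4.59% in SR genes, 5.30% in hnRNP genes and 2.56% in all genes. At 50 to below 200 reads it was 0.418% in SR genes, 3.54% in hnRNP genes and 0.679% in all genes. At 10 to below 50 reads it was 0.407% in SR genes (2 sites), 0.898% in hnRNP genes and 0.112% in all genes. Without Hnrnpa0, the hnRNP value from the deepest class down was 7.86%, 4.53%, 2.55% and 0.669%.

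Some weak sites with at least 1500 reads over the 3 libraries had similar levels in each. Position 707 of Hnrnpa0 had 61 of 578, 49 of 608 and 51 of 627 reads, or 8.92% ± 1.42 (SD, n = 3; adjusted p = 3.35e-66, exact binomial test). Its neighbours at 698, 699 and 708 had 6.55% ± 1.20, 6.33% ± 0.124 and 5.82% ± 0.90 (SD, n = 3 each). Position 495 of Srsf2 had 33 of 540, 26 of 498 and 30 of 472 reads, or 5.90% ± 0.597, and position 841 of Hnrnph1 had 5.05% ± 0.466 of 3204 reads (SD, n = 3 each). Position 2256 of Hnrnpu had 4.96% ± 0.204 of 1572 reads (SD, n = 3). These sites were picked for depth and level after their values were seen. Just outside the minimum stood position 1008 of Hnrnpa1 at 9.98% ± 5.82, and just inside it position 1074 of Hnrnpa0 at 10.02% ± 3.30 (SD, n = 3 each).

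Across the 2528 member cytosines with 100 reads or more in each library, the shares of 2 libraries correlated at Pearson's r of 0.605 to 0.622 and Spearman's rho of 0.389 to 0.405. These are correlations across cytosines, which share reads and are not independent replicates. Over all 493 testable cytosines of Srsf6, taken without the minimum of 100 reads, r was 0.819 to 0.844 and rho 0.190 to 0.295. This Srsf6 set includes the thinly read site at 1251. Because the coverage minimums differ, its values cannot be compared directly with those of the members together.

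Other splicing regulators, on a list of 40 genes that are no members, were also measured, 33 of them with testable cytosines. Because the list is incomplete, its counts are not set against those of the SR and hnRNP genes. Srrm2, a spliceosome-associated protein with SR repeats, held 3 candidates at 10.2% to 13.6% among 1875 testable cytosines, beside 0.0473% of all testable cytosines. The kinase gene Srpk2, whose product phosphorylates SR proteins, and the poly(C)-binding gene Pcbp1 held 1 each, at 12.1% ± 6.75 and 12.1% ± 4.85 (SD, n = 3 each). These 5 sites were thinly read, with 14 to 34 reads per library. Of the 31 genes of this incomplete list tested with limma, 5 were below the library share and 0 above. Of all genes tested, 7.43% were below and 6.79% above. These counts were not matched for depth. The 5 below were Clk4, Ddx5, Pcbp1, Snrpa and Srrm2. The helicase gene Ddx5 had 1.46%, 1.34% and 1.30% (adjusted p = 2.41e-05, limma, n = 3).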

How the data were processed

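Polyadenylated RNA of the 3 samples was fragmented, bisulfite-converted and sequenced as paired ends, per the labels' protocols. The submitters' processing notes name BSMAP and mm9. Not given in the sources used here are versions, annotation, strand handling and how reads shared between transcripts were counted. For each cytosine of a RefSeq mRNA the authors deposited its transcript position, a raw count of reads (coverage) and a fraction of unconverted reads. The authors listed no coverage below 3. Multiplying both gave the unconverted reads, whole to within 1e-06 for 100% of cytosines. Symbols came from GRCm38.p6 RefSeq by accession without version (14932 of 15021 identifiers), for names, neighbouring genes and printed sequences; no mm9 coordinates are used. Genes with near-identical copies or overlapping genes are therefore uncertain.

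Testable cytosines had 10 reads or more in each library. Candidates needed Benjamini-Hochberg adjusted p below 0.05 (one-sided exact binomial tests against the library-wide share, combined by Fisher's method), a mean share of 10% or more, and a share above background in each library; reads are treated as independent. Genes with at least 20 testable cytosines were tested with limma 3.58.1 (R 4.3.3) on log2 of the ratio of the gene's share (0.5 reads added) to the library share, with a trend on coverage. Other steps used Python 3.11.15 and SciPy 1.17.1. Both tests were tried on simulated independent reads. The site rule recovered 70 of 100 sites at 15% and 100 of 100 at 40%, and called 0 background cytosines. The gene test recovered 89.7% of genes with a log2 ratio of 1 up or down and called 0.0829% of unchanged genes. Site levels below 15%, smaller ratios such as those of the members called, and spread between cytosines beyond counting error were not simulated. Reads carry no molecular identifiers, so intervals and limits (3 counts for a count of 0) cover counting error only. At the median testable coverage of 29 to 33 reads a weak site may not be detectable.

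Members, lists and tests were chosen with earlier results of these data known. Named were all candidates in members, the most covered members, those past the gene test, members without testable cytosines, and candidates of the list of other regulators; any further name was picked with its values known. The alternatives tried were the coverage and level minimums, the way of combining p-values, the background, centring, pseudocount, gene filter and leaving out samples. Beside their coverage, the stem cell marker list held 3 candidates among 3335 testable cytosines, or 0.090%. The fibroblast marker list held 1 among 1437, or 0.070%. Over all testable cytosines the share was 0.0473%. A gene of the list of other regulators is not reported here, and the list's counts leave it out; this was decided with its values known.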

Additional observations from a re-analysis of the deposited data

How the results depend on the processing

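SR was below hnRNP in their unconverted share in every library under each of the 8 alternatives run. Mean differences ran from -0.123 to -0.163 percentage points, and the shares of both families moved by less than their SD. None of these alternatives divided the cytosines by depth. At 10 to below 50 reads, as given above, SR was higher in replicate 3 (1.85% beside 1.82%). SR candidates numbered 0 at a coverage minimum of 20 reads, where the Srsf6 and Srsf2 sites are no longer testable, and 1 (Srsf6) with the highest of the 3 p-values. The hnRNP candidates numbered 1 (Hnrnph1) at a level minimum of 20%, 3 with the highest p-value (Hnrnph1 and positions 1186 and 1190 of Hnrnpa0), and 11 at the coverage minimum of 20 reads. Leaving out 1 library gave 2 to 3 SR and 11 to 17 hnRNP candidates; 6 of the 17 sites were called without any 1 of the libraries. With the share of the same transcript as background, 15 of 17 held, and positions 29 and 150 of Hnrnpa0 did not. Without Hnrnpa0, an alternative chosen after seeing the data, the hnRNP genes held 6 candidates. The gene test called 2 SR genes under all alternatives, and 6 to 10 hnRNP genes, none below the library share. With 2 reads added, 704 of all genes were above and 472 below, beside 503 and 550, and Hnrnpa1 was called too (adjusted p = 0.0334). Without replicate 1, 676 of all genes were called, and without replicate 2, 679, beside 1053. Hnrnpc was called at a coverage minimum of 20 reads (adjusted p = 0.0442, limma for both). No paired analysis was possible because the samples form 1 group, so replicate numbers join no groups; SR and hnRNP were compared within each library. Coverage limits thinly read members such as Srsf1, Srsf7, Srsf9 and Hnrnpk, where a weak site would not be detectable at this depth.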
